A study of Mus musculus with 24 samples.

Results

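The 10 genes described here, Acta2, Actg2, Myh11, Tagln, Cnn1, Des, Lmod1, Synpo2, Smtn and Mylk, encode contractile and cytoskeletal proteins of smooth muscle cells. They and the lists below were chosen by name, with earlier results of these data known. Their counts beside the share of all genes are therefore a description. All 10 had a probe on the array. Of these, 9 passed the filter on dim probes and stood among 27952 genes that were tested. Total RNA of whole kidneys was compared between 6 control kidneys of genotype mgb+/+ and 18 kidneys of mgb-/- (megabladder) mice, whose bladder does not empty and whose kidneys are obstructed from before birth. All mice were male, labelled young adult and around weaning age by the study's methods, and the labels name no treatment. Ultrasound had graded 7 mgb-/- kidneys as mild, 5 as moderate and 6 as severe hydronephrosis, which is widening of the renal pelvis, by how much parenchyma was preserved. Each kidney was hybridized to its own single-colour array. The labels do not say whether 2 kidneys came from 1 mouse, so p-values measure the spread between kidneys, and the mutation is present in every organ of the mgb-/- mice. In whole-kidney RNA, more cells of a type and more RNA per cell cannot be told apart.

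Smooth muscle cells shorten when myosin pulls on actin filaments, and myosin is switched on by phosphorylation of its light chain. Serum response factor (Srf) binds a DNA element called the CArG box at many contractile genes and works with the coactivators myocardin (Myocd) and the myocardin-related factors. In a normal kidney these genes are used by the smooth muscle of arteries and arterioles and by the muscle coat of the renal pelvis. In an injured kidney Acta2 and Tagln are also made by myofibroblasts, the matrix-producing cells of fibrosis, so they are less specific to muscle than Myh11.

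Levels are given as log2 of the processed signal over the 75th percentile of the same array, so that 0 is that percentile and a difference of 1 is a doubling. They compare kidneys for 1 gene and not genes with each other. Between 55.1% and 70.7% of probes stood well above background on an array. One array, that of severe replicate 4, had the lowest of these shares and a dim area of 3002 of 59305 spots, 5.06% of the array. No spot of the other 23 arrays lay in such an area. The only spot of Myh11 fell in it, as the map of that array shows, so Myh11 is given below with and without this spot. A second kidney, moderate replicate 5, had lower levels than every other moderate kidney for all 9 tested genes. Counts of passing genes are given with and without it, as are the moderate changes of Acta2, Tagln and Cnn1. The kidney was recognizable in every group by its markers, with proximal tubule markers summing to 513 to 1987 times the 75th percentile.

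**Figure D1:**
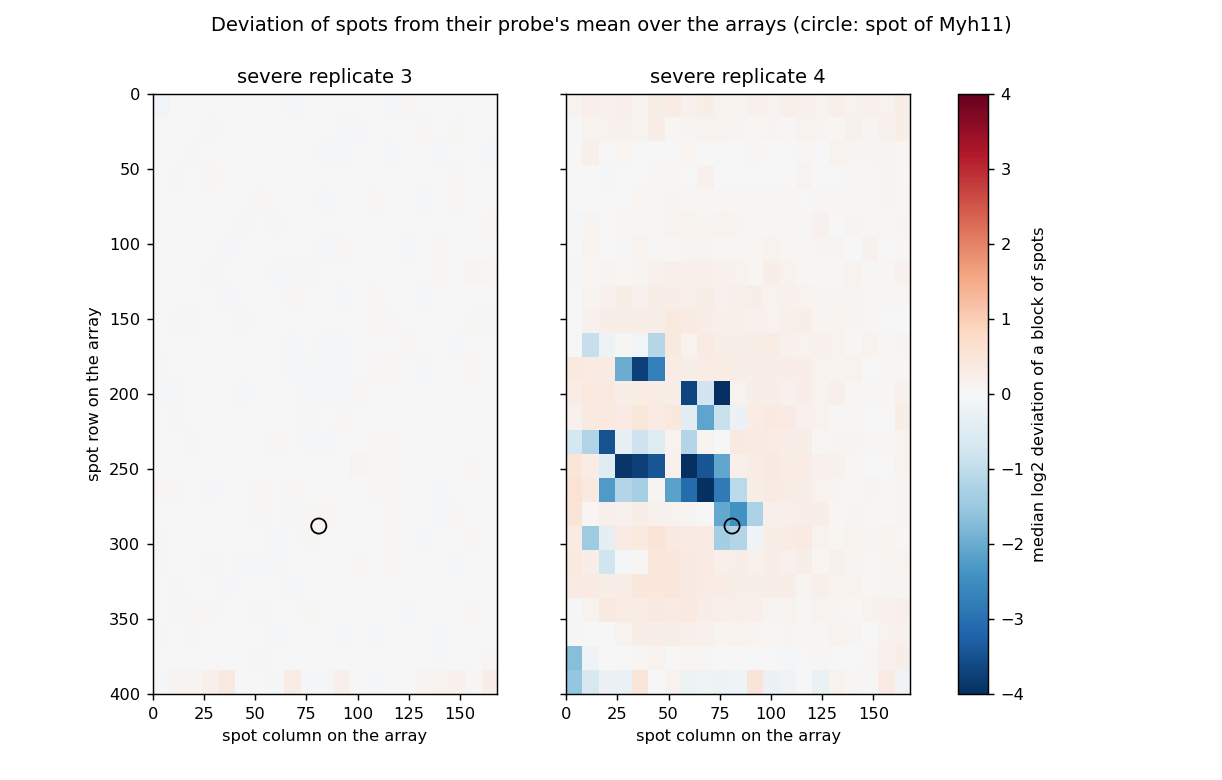
Median log2 deviation of blocks of spots from the median of each spot over all arrays, by spot column and spot row, for severe replicate 3 (left) and severe replicate 4 (right), with the spot of Myh11 circled. The heading in the picture says mean, but the median was used. The left array is even, while the right array has blue blocks of low signal, and the circle lies in one of them.

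Acta2 and Tagln rose in mgb-/- kidneys, and the other 7 tested genes did not pass. Acta2 encodes the α-actin of vascular smooth muscle and of myofibroblasts. Its level was lowest at 2.28, median 2.56 and highest at 3.39 in control kidneys, and 2.88, 3.28 and 4.04 in mild kidneys. In moderate kidneys it was 4.92, 3.95, 4.73, 5.15 and 2.44, and in severe kidneys it ran from 3.61 over a median of 4.26 to 5.35. All 6 severe kidneys and 4 of 5 moderate kidneys lay above the highest control, while mild and control kidneys overlapped. Over all mgb-/- kidneys Acta2 was 2.30-fold higher (log2 change 1.20, SE 0.34, adjusted p = 0.0223 by limma, adjusted over all genes), and 17 of 18 were above the control mean. Severe kidneys were 3.02-fold higher than control (log2 change 1.59, SE 0.36, adjusted p = 0.00845). In moderate kidneys the log2 change of 1.52 (SE 0.38) missed the threshold (adjusted p = 0.0513), and in mild kidneys it was 0.65 (SE 0.35, adjusted p = 0.302).

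The sequence before the start of Acta2 is shown because it holds the words of the CArG kind that were found in the windows of these genes. RefSeq windows (GRCm38.p6) of 300 bases, 250 before and 50 after the gene start, were matched by symbol for 7 of the genes (Acta2, Cnn1, Des, Lmod1, Mylk, Smtn and Synpo2). The CArG box, CC and GG around 6 bases that are all A or T, reads alike on both strands, and none of the 7 windows held it, against 1.63% of 32851 windows in all. With up to 1 G or C allowed among the inner 6 bases, 9.98% of all windows had a match and 0.822% had 2 or more. The window of Acta2 had 2, beginning 84 and 34 bases before the gene start, and the other 6 windows had none. In the 250 bases below, at chr19:34255374-34255623 on the minus strand, capitals mark these words. Srf, whose level is given further on, had 2 strict words, beginning 82 and 62 bases before its start, and 125 of its bases at chr17:46556163-46556287 on the minus strand are printed for comparison. A match is a run of letters and not a measured binding site.
Acta2: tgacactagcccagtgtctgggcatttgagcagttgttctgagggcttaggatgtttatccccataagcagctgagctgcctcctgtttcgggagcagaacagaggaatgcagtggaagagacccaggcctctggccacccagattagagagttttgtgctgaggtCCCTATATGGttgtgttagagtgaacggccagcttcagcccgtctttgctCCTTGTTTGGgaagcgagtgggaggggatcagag
Srf: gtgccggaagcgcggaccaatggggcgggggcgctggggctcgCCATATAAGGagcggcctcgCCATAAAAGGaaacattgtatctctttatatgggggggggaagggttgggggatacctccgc

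Tagln, which encodes the actin-binding protein transgelin (SM22α), separated the groups most clearly of the 9 genes. Control kidneys ran from 3.04 over a median of 3.33 to 3.76, and mild kidneys from 3.83 over 4.05 to 4.76. Moderate kidneys had levels of 5.38, 4.55, 5.38, 5.75 and 3.17, and severe kidneys ran from 4.36 over 5.04 to 5.86. Of 18 mgb-/- kidneys, 17 lay above the highest control, the exception being moderate replicate 5. Tagln was 2.43-fold higher in mgb-/- than in control kidneys (log2 change 1.28, SE 0.30, adjusted p = 0.00841). By grade the log2 change from control was 0.80 (SE 0.31, adjusted p = 0.128) in mild, 1.50 (SE 0.34, adjusted p = 0.0333) in moderate and 1.66 (SE 0.32, adjusted p = 0.0031) in severe kidneys. All 7 mild kidneys were above the highest control although the test was missed. The call in moderate kidneys was lost when control 1, 2, 3, 4 or 6 or moderate 1, 3 or 4 was left out (adjusted p from 0.0619 to 0.136).

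Actg2, the γ-actin of visceral smooth muscle such as that of bladder, ureter and gut, had the widest spread of the actins. Control kidneys ran from -2.36 over a median of -1.03 to 0.24, and mild kidneys from -3.85 over -0.60 to 1.15. Moderate kidneys had 2.80, 0.85, 2.39, 2.31 and -2.05, and severe kidneys ran from -0.49 over 1.08 to 3.02. Control replicates 5 and 6, at 0.23 and 0.24, lay within the severe range, and mild replicate 5 lay below every control. The log2 change was 1.46 (SE 0.74, adjusted p = 0.195) over all mgb-/- kidneys, 0.33 (SE 0.79, adjusted p = 0.881) in mild, 2.30 (SE 0.86, adjusted p = 0.161) in moderate and 2.09 (SE 0.82, adjusted p = 0.0841) in severe kidneys, so none passed. Without severe replicate 6 the change in severe kidneys was 2.40 (adjusted p = 0.0431).

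Cnn1 encodes calponin, an actin-binding protein typical of differentiated smooth muscle. Its level ran from -0.40 over 0.30 to 1.56 in control, from -1.36 over 0.96 to 2.01 in mild and from 0.99 over 2.19 to 2.70 in severe kidneys. The moderate kidneys had 2.80, 1.57, 2.69, 2.08 and -0.32. Controls 5 and 6 were again the highest of their group and mild replicate 5 the lowest of all kidneys. Cnn1 rose in severe kidneys, by 2.91-fold (log2 change 1.54, SE 0.52, adjusted p = 0.0479), with 5 of 6 above the highest control. This call was lost when any 1 of 16 kidneys was left out (control 1 to 4, mild 1, 2, 4, 6 and 7, moderate 2 and 4, severe 1 to 5; adjusted p from 0.0529 to 0.0993) and with slide as a block, no filter on dim probes, array quality weights or scaling by the array median (adjusted p = 0.0605, 0.0639, 0.0728 and 0.0885). The change was 0.97 (SE 0.47, adjusted p = 0.173) over all mgb-/- kidneys, 0.26 (SE 0.50, adjusted p = 0.842) in mild and 1.29 (SE 0.55, adjusted p = 0.214) in moderate kidneys.

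**Figure D2:**
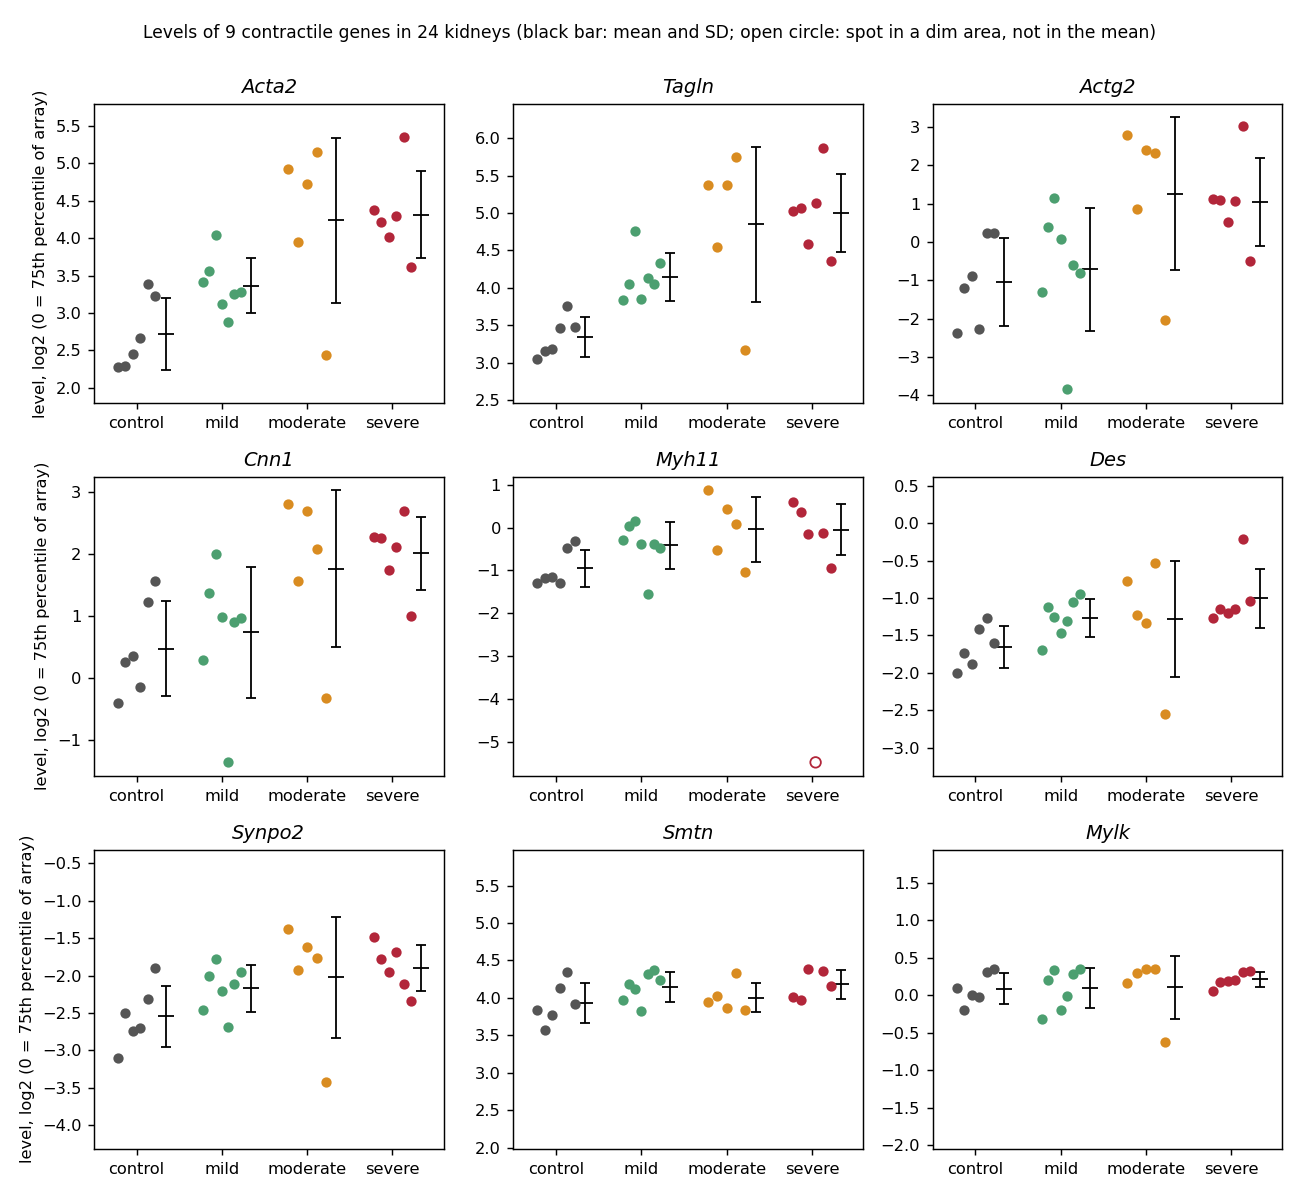
Log2 level of each of 9 contractile genes over the 75th percentile of the array (vertical axis) in every control, mild, moderate and severe kidney (points), with the group mean and SD as black bars. For Acta2 and Tagln all 6 severe kidneys lie above the highest control, moderate replicate 5 is the lowest moderate point in all 9 panels, and the open circle is the Myh11 spot in the dim area, at -5.48, which is not in its mean.

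Myh11, the smooth muscle myosin heavy chain, is the most specific marker of the smooth muscle lineage among these genes. It ran from -1.29 over -1.17 to -0.31 in control and from -1.56 over -0.39 to 0.16 in mild kidneys, and the moderate kidneys had 0.88, -0.52, 0.43, 0.09 and -1.04. The severe kidneys had 0.61, 0.37, -0.14, -5.48, -0.12 and -0.95. The value of -5.48 is that of replicate 4, where the 100 spots around the Myh11 spot had a median deviation of -3.85 from their own medians over the arrays. With this spot the change in severe kidneys was 0.00 (SE 0.69, adjusted p = 1.00). Without it the change was 0.91 (SE 0.34, adjusted p = 0.0725, 5 severe kidneys), and that over all mgb-/- kidneys was 0.76 (SE 0.27, adjusted p = 0.0597, 17 kidneys) in place of 0.47 (SE 0.56, adjusted p = 0.628). With the spot in the fit, the change was 0.54 (SE 0.67, adjusted p = 0.721) in mild and 0.92 (SE 0.72, adjusted p = 0.52) in moderate kidneys. Without it the SEs were smaller, at 0.32 in mild (adjusted p = 0.337) and 0.34 in moderate kidneys (adjusted p = 0.153). Neither grade passed with or without the spot.

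Mylk encodes myosin light chain kinase, the enzyme that switches on smooth muscle myosin, and it is also made in non-muscle cells. Its levels were nearly flat, from -0.20 to 0.35 in control, -0.31 to 0.35 in mild and 0.06 to 0.32 in severe kidneys. Moderate kidneys had 0.17, 0.29, 0.35, 0.35 and -0.63, and the groups overlapped. The log2 change over all mgb-/- kidneys was 0.05 (SE 0.12, adjusted p = 0.841), and it turned to -0.10 when arrays were scaled by their median. By grade it was 0.00, 0.02 and 0.12 in mild, moderate and severe kidneys, with SEs from 0.15 to 0.16 and adjusted p from 0.626 to 0.998.

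Des encodes desmin, the intermediate filament protein of muscle, which in kidney also marks mesangial cells and pericytes. It ran from -2.00 to -1.27 in control, from -1.69 to -0.95 in mild and from -1.27 to -0.21 in severe kidneys, and the moderate kidneys had -0.78, -1.22, -1.34, -0.54 and -2.55. The change was 0.47 (SE 0.20, adjusted p = 0.126) over all mgb-/- kidneys, and 0.39 (adjusted p = 0.385), 0.37 (adjusted p = 0.473) and 0.65 (SE 0.25, adjusted p = 0.0799) in mild, moderate and severe kidneys.

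Synpo2, or myopodin, encodes an actin-bundling protein of the muscle Z-disc and dense bodies. Control kidneys ran from -3.10 to -1.90, mild from -2.69 to -1.78 and severe from -2.35 to -1.49, and moderate kidneys had -1.37, -1.93, -1.62, -1.77 and -3.42. The change was 0.50 (SE 0.21, adjusted p = 0.117) over all mgb-/- kidneys, and 0.37 (adjusted p = 0.446), 0.52 (adjusted p = 0.321) and 0.65 (SE 0.27, adjusted p = 0.0986) by grade. The brightest of 3 Synpo2 probes was used. The other probes were well above background on 7 and 9 arrays and differed by -0.48 and 0.29 between mgb-/- and control kidneys.

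Smtn encodes smoothelin, found in contractile smooth muscle. The spot of its brighter probe was flagged by the scanner software on the array of severe replicate 4 and was dropped, which left 17 mgb-/- kidneys. Control kidneys ran from 3.58 to 4.34, mild from 3.82 to 4.37 and severe from 3.97 to 4.39, and moderate kidneys had 3.95, 4.03, 3.87, 4.33 and 3.84. The change was 0.18 (SE 0.11, adjusted p = 0.273) over mgb-/- kidneys, and 0.22 (adjusted p = 0.352), 0.07 (adjusted p = 0.832) and 0.25 (SE 0.14, adjusted p = 0.223) by grade. Its second probe differed by 0.22 and followed the first over the kidneys (r = 0.92). Lmod1 encodes leiomodin, which starts actin filaments in smooth muscle. Its only probe was not well above background on any of 24 arrays, so no fold is given.

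Across the 9 genes, 2 passed in mgb-/- against control kidneys, both higher, while 5.34% of all genes passed as higher. All 9 log2 changes were above 0, with a median of 0.50 beside 0.01 over all genes. Against control, 0 of 9 passed in mild kidneys by limma (1 at an unadjusted p under 0.05; 3.01% of all genes higher), 1 in moderate kidneys (Tagln; 0.648% of all genes) and 3 in severe kidneys (Acta2, Tagln and Cnn1; 6.58% of all genes). These comparisons share the same 6 controls. Without moderate replicate 5 the counts were 4 of 9 over all mgb-/- kidneys (Acta2, Tagln, Des and Synpo2; 6.73% of all genes), 1 in mild (Tagln; 3.32%), 5 in moderate (Acta2, Actg2, Tagln, Cnn1 and Synpo2; 2.24%) and 6 in severe kidneys (the same 5 and Des; 7.15%). That kidney was singled out by its low levels of these same genes, so the higher counts lend no support. In mild and severe kidneys calls were gained although the changes stayed the same (Tagln 0.80 in mild, Des and Synpo2 0.65 in severe). In moderate kidneys the changes without it were 1.97 for Acta2, 1.92 for Tagln and 1.81 for Cnn1. With all kidneys the changes in moderate kidneys were 1.52, 1.50 and 1.29, beside 1.59, 1.66 and 1.54 in severe kidneys. Only the moderate group was trimmed, and by its level of these same genes, so no order of the grades follows. Leaving out control replicate 1, 2 or 3 in turn left only Tagln in mgb-/- against control kidneys, with adjusted p between 0.0572 and 0.0612 for Acta2. Scaling by the array median moved the median change of all genes from 0.01 to -0.14. Tagln then passed alone, and Acta2 had a change of 1.05 (adjusted p = 0.057).

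**Figure D3:**
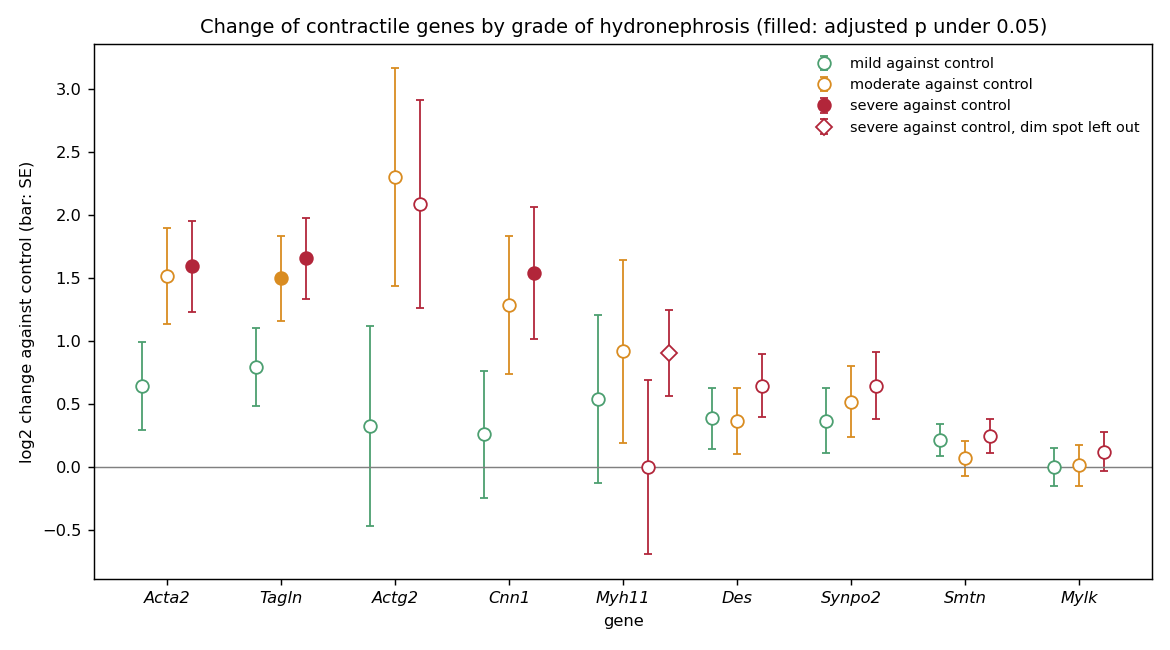
Log2 change from control with its SE (vertical axis) for 9 contractile genes (horizontal axis) in mild, moderate and severe kidneys, from a limma fit over 24 kidneys, with filled points for an adjusted p under 0.05. Tagln (moderate and severe), Acta2 (severe) and Cnn1 (severe) are filled, Smtn and Mylk lie near 0 in every grade, and the diamond is Myh11 in severe kidneys without the dim spot, at 0.91.

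Between grades no contractile gene passed. In severe against mild kidneys 0 of 9 passed by limma (4 at an unadjusted p under 0.05; 0.533% of all genes higher). The changes were 0.86 for Tagln (SE 0.31, adjusted p = 0.296), 0.95 for Acta2 (SE 0.35, adjusted p = 0.314), 1.28 for Cnn1 (SE 0.50, adjusted p = 0.343) and 1.76 for Actg2 (SE 0.79, adjusted p = 0.417). Every severe kidney was above the mild mean for these 4 genes, and groups overlapped. The counts were also 0 of 9 in moderate against mild (3 at an unadjusted p under 0.05; 0% of all genes), in severe against moderate (0 at an unadjusted p under 0.05; 0.00358% of all genes) and for a slope on the grade over the mgb-/- kidneys (4 at an unadjusted p under 0.05; 0.233% of all genes).

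Genes with related roles were set against each other within each kidney, in 3 pairs and 2 comparisons, with exact permutation tests, two-sided, adjusted over the 6. Actg2 minus Acta2, the visceral against the vascular actin, was 0.26 higher in mgb-/- than in control kidneys (exact permutation p = 0.603, adjusted p = 0.678) and 0.81 higher in severe than in mild kidneys (exact permutation p = 0.201). Cnn1 minus Tagln differed by -0.31 and 0.42 (exact permutation p = 0.338 and 0.398). Myh11 minus Mylk differed by 0.42 and -0.66 with the dim spot (exact permutation p = 0.485 and 0.678). Without that spot it was 0.72 higher in mgb-/- kidneys (exact permutation p = 0.00992, adjusted p = 0.0595) and 0.25 higher in severe than in mild kidneys (exact permutation p = 0.503). No pair passed the adjusted threshold.

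The contractile genes fell into closely and loosely shared patterns over the kidneys, which share array, scaling and kidney, so the correlations are given as a description. Acta2 and Tagln had r = 0.97 over 24 kidneys, and 0.94 after the group means were removed. Actg2 and Cnn1 had r = 0.98, and 0.97 after the group means were removed. Myh11 had r = 0.90 with Cnn1 and 0.86 with Actg2 without the dim spot, but 0.32 and 0.35 with it. Smtn had the lowest values, 0.13 with Myh11, 0.14 with Actg2 and 0.16 with Cnn1 over 23 kidneys, and Mylk had its highest value with Des (0.71). The mean of the 9 genes, each centred, was most like Tpm2 (r = 0.92), a tropomyosin of muscle, Tgfb3 (0.90), a growth factor of the TGFβ family, Flna (0.90), an actin cross-linker, an unnamed transcript (0.90) and Cldn4 (0.89), a tight junction protein. Rgs5 (0.87), a pericyte regulator of G-protein signalling, Sprr2f (0.87), a protein of stratified epithelia, and Acta1 (0.87), the skeletal muscle actin, completed the 8. Sprr2f was well above background on 13 of 18 mgb-/- and 0 of 6 control arrays, so it passed the filter only through mgb-/- kidneys. The median r over all genes was -0.09 and the 99th percentile was 0.77. This mean holds the dim spot of Myh11. With the dim areas left out, 5 of the 8 stayed among the first 8 (Tpm2 at 0.94, the unnamed transcript at 0.93, Tgfb3 at 0.91, Rgs5 at 0.90 and Flna at 0.90), while Cldn4, Acta1 and Sprr2f ranked 11, 12 and 28, and the 99th percentile was 0.79.

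**Figure D4:**
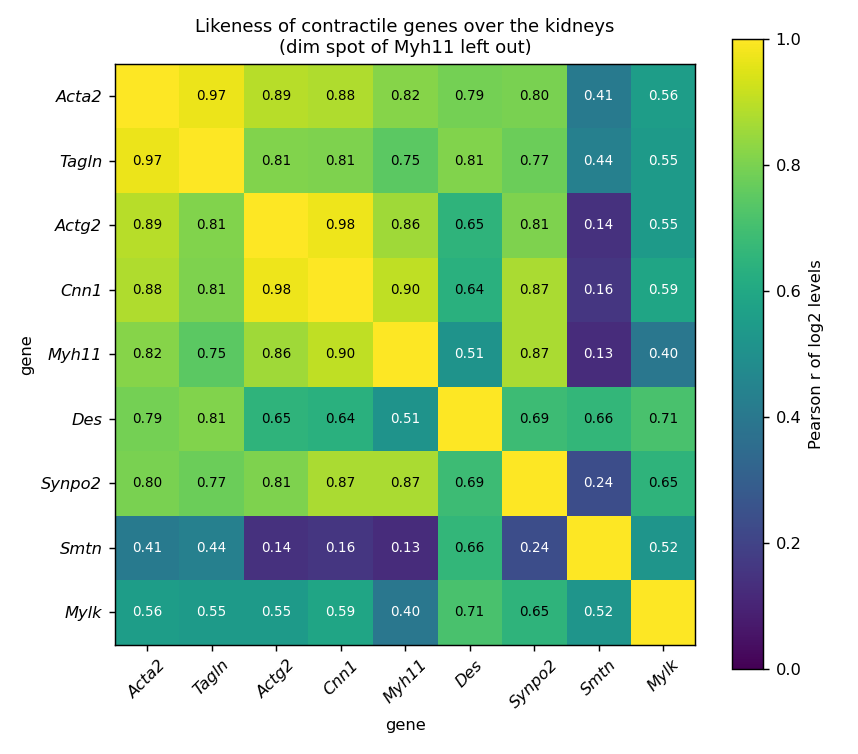
Pearson r of log2 levels between pairs of 9 contractile genes over the kidneys (both axes: genes; colour: r), without the dim spot of Myh11. Acta2, Tagln, Actg2, Cnn1, Myh11 and Synpo2 form a block with r from 0.75 to 0.98, and the row of Smtn is dark, down to 0.13.

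Other smooth muscle genes were read from a list of 30, all of which were tested. In mgb-/- kidneys 7 of 30 were higher and 1 was lower, beside 5.34% of all genes higher and 8.01% lower, with a median change of 0.42. Tpm2 rose by 0.83 (SE 0.25, adjusted p = 0.0309), Pdlim3, a Z-disc protein, by 0.63 (adjusted p = 0.0465), and Prkg1, the cGMP-dependent kinase that relaxes smooth muscle, by 0.57 (SE 0.14, adjusted p = 0.00979). Kcnma1, the pore of the calcium-activated potassium channel, was well above background on 9 of 18 mgb-/- and 0 of 6 control arrays. It passed the filter only through mgb-/- kidneys, so its place among the 7 lends no support. Raising each control array to its lowest signal well above background gave a bound of 1.80-fold, or 0.85 in log2, for Kcnma1, without a spread. The adjusted p of 0.027 by limma belongs to its measured change and not to this bound. That change uses control signals that were not well above background. With normexp correction the log2 change of Kcnma1 was 0.36 (adjusted p = 0.0546) and it was 0.38 in the authors' table (adjusted p = 0.0907). Both changes were below the bound, so the bound is not a minimum across ways of processing. Casq2, a calcium store protein, was well above background on 12 of 18 mgb-/- and 1 of 6 control arrays. It too passed the filter through mgb-/- kidneys, and its place among the 7 lends no support either. Its measured change was 0.89 (SE 0.22, adjusted p = 0.0131). This call was lost with normexp correction (0.23, adjusted p = 0.0927), in the authors' table (0.18, adjusted p = 0.158) and with array quality weights (0.50, adjusted p = 0.0569). In severe kidneys 10 of 30 were higher and 1 was lower, beside 6.58% and 9.58% of all genes. In severe against mild kidneys 0 of 30 passed by limma (4 at an unadjusted p under 0.05). When arrays were scaled by their median, Tpm2, Pdlim3 and Prkg1 no longer passed (adjusted p from 0.113 to 0.139). Leaving out 1 kidney ended the call of Pdlim3 for 18 of 24 kidneys, of Tpm2 for controls 1 to 4 and of Kcnma1 for controls 3, 4 and 5.

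Of 11 regulators of smooth muscle genes, 10 were tested and 7 were higher in mgb-/- kidneys (5.34% of all genes higher), with none lower and a median change of 0.64. In severe kidneys 6 of 10 were higher than in controls (Gata6, Srf, Mkl2, Notch3, Jag1 and Tshz3; 6.58% of all genes). Fewer passed at the lower grades, 3 of 10 in mild kidneys (3.01% of all genes) and 1 of 10 in moderate kidneys (0.648%). Gata6, a transcription factor of vascular smooth muscle, was higher in all 18 mgb-/- kidneys than in any control (log2 change 1.59, SE 0.24, adjusted p = 0.000329), already so in mild kidneys (1.78, adjusted p = 0.00114). Srf rose by 0.66 (SE 0.17, adjusted p = 0.014) and its coactivator Mkl2 (Mrtfb) by 0.36 (SE 0.09, adjusted p = 0.0122). The rise of Srf was uneven over the grades. Moderate kidneys, at a mean level of 1.061, stood closest to the controls (0.804), while severe kidneys averaged 1.516 and mild ones 1.705. Notch3, a receptor of arterial smooth muscle, rose by 0.61 (SE 0.17, adjusted p = 0.0213) and its ligand Jag1 by 0.42 (SE 0.13, adjusted p = 0.0399). Klf4, which represses contractile genes, rose by 0.71 (SE 0.20, adjusted p = 0.0202) and Tshz3, a factor needed for ureter muscle, by 0.67 (SE 0.17, adjusted p = 0.0149). Myocd, the main smooth muscle coactivator, changed by 0.59 (SE 0.33, adjusted p = 0.248), with no mgb-/- kidney above the highest control. Mkl1 (Mrtfa) changed by 0.14 (SE 0.29, adjusted p = 0.79), and by 0.30 without severe replicate 4, the array with the dim area. Its severe levels ran from -0.50 over a median of 2.22 to 3.09. Tbx18 was well above background on 6 of 18 mgb-/- and 0 of 6 control arrays, so no fold is given, and Foxf1 was well above background on 2 severe arrays only. When arrays were scaled by their median, Gata6 and Tshz3 passed while Srf, Mkl2, Notch3, Jag1 and Klf4 did not (adjusted p from 0.0835 to 0.366), and the change of Mkl1 turned to -0.01. With the mean of each gene's probes, Srf and Mkl2 did not pass (adjusted p = 0.066 and 0.297). Leaving out 1 kidney ended the call of Jag1 for 12 of 24 kidneys, of Klf4 for controls 3, 4 and 5, of Notch3 for controls 1 and 3 and of Tshz3 for control 3, and Myocd passed without control 6 (0.95, adjusted p = 0.049).

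Some markers of urothelium, myofibroblasts and pericytes were also higher in mgb-/- kidneys. Of 9 urothelial genes, 4 were higher in mgb-/- and 9 in severe kidneys, beside 5.34% and 6.58% of all genes. Their summed level was 7.00 to 21.4 times the 75th percentile in control, 6.24 to 67.8 in mild, 16.1 to 72.8 in moderate and 78.9 to 266 in severe kidneys. The sum of 7 contractile genes, without Myh11, Smtn and Lmod1, was 15.5 to 29.4 in control, 26.9 to 51.8 in mild, 16.4 to 101 in moderate and 37.4 to 116 in severe kidneys. By median this sum was 81.8 in moderate and 61.5 in severe kidneys, while the urothelial sum was 48.7 and 116. Of 15 myofibroblast genes, 4 were higher in mgb-/- kidneys, namely Ctgf, Dcn, Lox and S100a4, beside 5.34% of all genes. The sum of the 15 was 113 to 139 in control, 139 to 196 in mild, 73.7 to 315 in moderate and 154 to 529 in severe kidneys. Severe replicate 5 was the highest and moderate replicate 4 the second highest kidney in this sum as in that of the contractile genes. Moderate replicate 5 was lower than any control in the myofibroblast sum and within the control range in the contractile sum. Of 9 pericyte and renin cell genes, 4 were higher (Rgs5, Rgs4, Abcc9 and Higd1b), again beside 5.34% of all genes. The part of these cells in the change of the contractile genes was not tested. Of the skeletal and cardiac muscle genes, Myh2, Myh4 and Ckm were not well above background on any array. The list summed to 0.32 to 0.60 in control and 0.47 to 2.14 in mgb-/- kidneys. Tnni2 alone made up 49.2% of this sum, with mean levels of -2.67 in control and -0.56 in severe kidneys. Among 7 tested, Acta1 was higher and Myh1 lower in mgb-/- kidneys. Myh1 was well above background on 5 control, 1 mild, 2 moderate and 1 severe array. It thus passed the filter through the controls, and its change uses mgb-/- signals mostly not well above background. In mgb-/- against control kidneys no gene passed among the endothelial (8), leukocyte (7), adipocyte (6), adrenal (5), proximal tubule (8) and mesangial and podocyte (7) markers tested, and between 0 and 3 of each list had an unadjusted p under 0.05. The 5 adrenal genes, markers of the gland beside the kidney, had changes from 1.82 to 3.36 (lowest adjusted p = 0.174), and in mild kidneys 4 of 5 had an unadjusted p under 0.05 (lowest adjusted p = 0.0947). Of these, Cyp11a1 and Mc2r were well above background on 0 of 6 control arrays and Cyp11b1 on 1. They passed the filter through mgb-/- kidneys, and their changes use control signals mostly not well above background. The sum of the 6 adrenal markers listed was at most 0.21 in control and 0.50 in severe kidneys but reached 126 in mild and 111 in moderate kidneys. By grade, Kdr of the endothelium (-0.39, adjusted p = 0.0235) and Slc5a2 of the proximal tubule (-1.16, adjusted p = 0.027) were lower in severe kidneys, and Wt1 of podocytes was higher in mild kidneys (0.72, adjusted p = 0.0424).

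**Figure D5:**
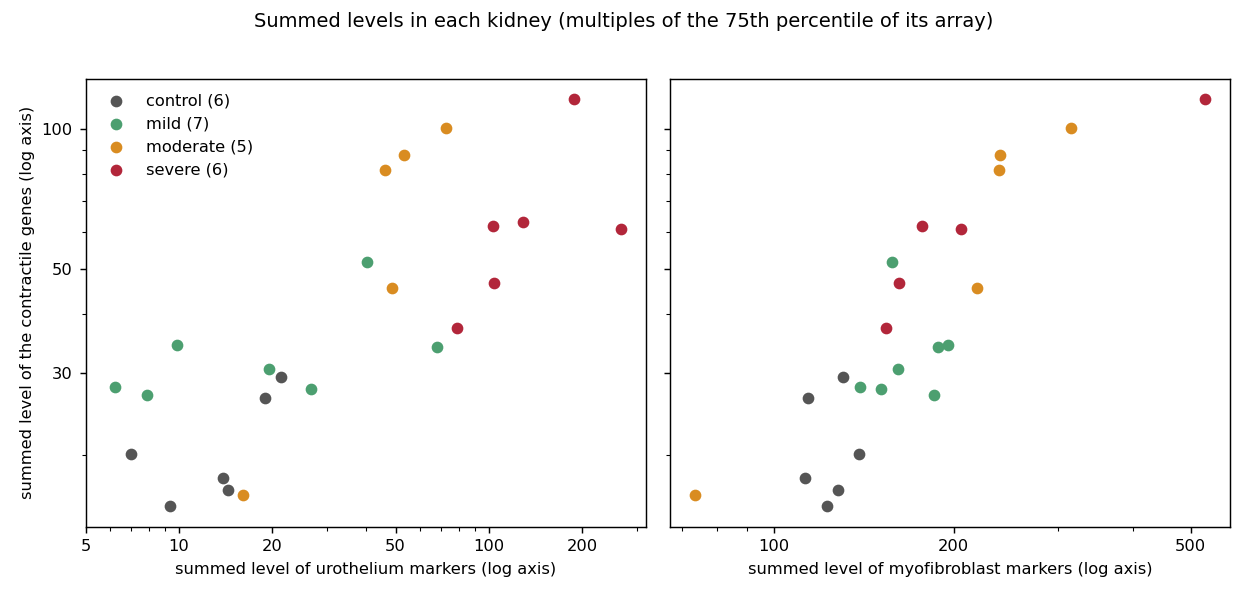
Summed level of 7 contractile genes (vertical log axis) against the summed level of 9 urothelial markers (left, 24 kidneys) and of 15 myofibroblast markers (right, 23 kidneys, as 1 severe kidney lacks a value), both in multiples of the 75th percentile of the array. Points are kidneys coloured by group, the severe kidneys lie to the right of all others on the left, and the moderate point at 16.4 among the controls is moderate replicate 5.

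Neighbouring genes on the chromosome were read for both genes that passed in mgb-/- against control kidneys. None of the 3 measured genes on each side of Tagln passed, with changes from -0.13 to 0.10. Around Acta2, the next gene Fas, a death receptor, rose by 0.70 (SE 0.17, adjusted p = 0.0122) and Ankrd22 by 2.68 (SE 0.76, adjusted p = 0.0239), while Lipa fell by 0.60 (adjusted p = 0.0412), and Lipf, Stambpl1 and Ch25h did not pass. Within each of the 3 slides, which held 2 control and 6 mgb-/- kidneys each, Tagln was 1.45, 0.94 and 1.45 higher and Acta2 1.54, 0.86 and 1.21 higher in mgb-/- kidneys, and Actg2 differed by 3.01, 0.29 and 1.09.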

How the data were processed

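The genes and all lists were chosen with earlier results of these data known. The authors deposited, per array, the intensity output of Agilent Feature Extraction (version 10.10 per the labels), and a table of intensities normalized between arrays by a method not given in the sources used here. The processed signal, background-subtracted within each array, was converted to log2 and centred on the 75th percentile of the array's gene spots. Outlier-flagged spots were dropped, replicate spots averaged, and 38826 of 55681 probes kept because at least 5 arrays measured them well above background. RefSeq names (GRCm38.p6) were found for 26762 probes, and the others kept their accession. The brightest probe of each of 27952 genes was used, and on 324 genes a value was missing.

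limma 3.58.1 in R 4.3.3 was fitted with 2 groups (mgb-/- and control), with 4 groups (grades), and with a slope on the grade coded 1, 2 and 3, and Benjamini-Hochberg adjustment ran over the 27952 genes. A gene passed at an adjusted p under 0.05. The named genes were the 10 contractile genes, the regulators, the 5 largest passing changes of other contractile genes, the 8 genes most like the contractile genes' mean, and 3 neighbours on each side. A bound on a fold raised each control array to its lowest signal well above background. The spread between 24 arrays limits the precision. Leaving out the dim area and singling out moderate replicate 5 were chosen after their values were seen. The dim area was defined as spots whose 100 surrounding spots had a median log2 deviation under -1. The fit was tested on simulated data. Figures were drawn with matplotlib 3.10.9.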

Additional observations from a re-analysis of the deposited data

Results flagged for a closer look

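In 5 of 36 groups of kidneys tested over the 9 contractile genes, the highest or lowest kidney stood far from the others by Dixon's criterion. Chance alone meets it in about 1 in 20 independent groups. These groups share kidneys, and the genes are correlated, so the count cannot be held against that rate. The Myh11 level of severe replicate 4 was -5.48, next to -0.95, and its spot lies in the dim area of that array. The Myh11 level of mild replicate 5 was -1.56, next to -0.47, and Actg2 and Cnn1 were also lowest in that kidney among the mild kidneys. The Des level of severe replicate 5 was -0.21, next to -1.04. In moderate replicate 5 the Synpo2 level was -3.42, next to -1.93, and the Mylk level was -0.63, next to 0.17.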

How the results depend on the processing

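In mgb-/- against control kidneys 1 contractile gene passed with scaling by the array median, 1 with the replicate block, 3 with normexp correction and 4 with array quality weights, beside 2. Over all genes 522 were higher with median scaling, 862 with the replicate block and 1391 with normexp correction, beside 1493. Such a number is not given here for array weights or by grade. The counts below therefore do not show a shift particular to the contractile genes. In mild against control kidneys the count was 3 with array weights and 1 with the compared groups alone, beside 0. In moderate against control kidneys it was 0 with median scaling, the replicate block or the compared groups alone, 2 with normexp correction, the authors' table, a filter that asked for all 24 arrays, averaged probes, the dim areas left out or an adjusted p under 0.1, and 5 with array weights, beside 1. In severe against control kidneys it was 2 with median scaling, no filter on dim probes, slide as a block or the replicate block (Cnn1 lost), 4 with quantile normalization or the authors' table (Smtn added), 5 with normexp correction or array weights and 6 at an adjusted p under 0.1, beside 3. In moderate against mild kidneys it was 3 with array weights, beside 0. The other alternatives that kept all kidneys gave the counts of the report. Leaving out each kidney in turn gave 1 to 4 genes in mgb-/-, 0 to 1 in mild, 0 to 5 in moderate and 2 to 6 in severe against control kidneys. The cause of these shifts was not tested.

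Directions turned for the values that follow. Without the dim area Myh11 minus Mylk in severe against mild kidneys went from -0.66 to 0.25 (range -1.003 to 0.25 over the kidneys left out) and Myh11 in severe against mild kidneys from -0.54 to 0.37 (0.44 with array weights, range -0.85 to 0.37). Myh11 in severe against control kidneys was -0.028 with quantile normalization and -0.16 with median scaling (range -0.31 to 0.91). Mylk over all mgb-/- kidneys was -0.10 with median scaling (range -0.012 to 0.098). In mild kidneys it was -0.0032 with quantile normalization, -0.14 with median scaling and -0.040 with the replicate block (range -0.056 to 0.070). It was -0.13 in moderate kidneys (range -0.046 to 0.20) and -0.039 in severe kidneys with median scaling. Smtn in moderate kidneys was -0.070 with median scaling (range -0.0090 to 0.16). Synpo2 in moderate kidneys was -0.0086 with the mean of probes, beside 0.52. With array weights Actg2 and Cnn1 in mild kidneys were -0.21 and -0.12, beside 0.33 and 0.26. With median scaling Mkl1 over all mgb-/- kidneys was -0.0081 (range 0.070 to 0.30 over the kidneys left out).

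The replicate numbers of the titles did not pair the kidneys, since same-numbered kidneys of different groups had a median correlation of 0.00 over 33 pairs (10 over 0.1). With the replicate block Acta2 over all mgb-/- kidneys had an adjusted p of 0.0528, Tagln in moderate kidneys 0.126 and Cnn1 in severe kidneys 0.0847. The signal of Lmod1 lay too near background to compare.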
